A study of Coccomyxa subellipsoidea C-169 with 6 samples.

Results

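The subject is a set of 3 genes of the green alga Coccomyxa subellipsoidea C-169 that encode translation elongation factors. They are COCSUDRAFT_47721 (Elongation factor EF-3), COCSUDRAFT_27513 (Elongation factor 1-alpha, here EF-1alpha) and COCSUDRAFT_36392 (Elongation factor Tu, here EF-Tu). They were taken by locus tag, and all 3 are present among the 9490 genes of the deposited count tables. The 3 were picked with their read counts and their difference between the groups already known. Those values are therefore given as descriptions, without a test, and support nothing beyond themselves. The protein names come from the deposited tables and were not checked against sequence.

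Messenger RNA was sequenced from 6 cultures in stationary phase, collected 3 hours before the dark phase. Of these, 3 libraries came from wild type (WT) and 3 from cultures whose genotype label is Overexpressor CsubMADS1 OX, here called OX-labelled. The labels name no promoter, construct or number of lines for the OX-labelled cultures, so a difference particular to 1 line cannot be told apart from one of the labelled gene. The labels call the 3 libraries of each group biological replicates.

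Translation elongation is the stage at which the ribosome adds amino acids to a growing protein. In the cytosol, EF-1alpha carries aminoacyl-tRNA to the ribosome as a GTP-bound protein and EF-2 then moves the ribosome along the messenger RNA. EF-3 is an ATPase, best known from yeast and other fungi, that helps the spent tRNA leave the ribosome. EF-Tu is the bacterial counterpart of EF-1alpha and serves the ribosomes of mitochondria and plastids. EF-Ts reloads EF-Tu with GTP, and EF-G is the bacterial-type counterpart of EF-2. In many green algae the plastid genome itself carries an EF-Tu gene, and the name of COCSUDRAFT_36392 does not say which organelle its product serves.

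Library totals ran from 3771499 to 5336375 counts. The MADS-box gene COCSUDRAFT_67545, the 1 gene of the tables with that name, was looked at as a check of the labels. Levels are given in CPM, the count scaled to the library total and corrected by a TMM factor. The WT mean of this gene was 86.8 ± 7.72 CPM and the OX-labelled mean 60.7 ± 7.0 CPM (SD, n = 3 each), a log2 fold change of -0.51 (SE 0.18). The test did not pass (edgeR adjusted p = 0.0535). The level goes against the label, and every direction here is that of the labels. Whether this gene is CsubMADS1, and whether a transcript from an introduced copy would be counted here, was not tested. Across 13 alternative settings its adjusted p ran from 0.0295 to 0.168. The second principal component (19.6% of variance) set OX replicate 3 apart within its group, and values without it are given beside the results they move most.

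EF-1alpha was counted 18489, 16703 and 14199 times in WT replicates 1 to 3, and 10278, 12610 and 12769 times in OX-labelled replicates 1 to 3. Scaled, these are 3719, 3518 and 3590 CPM in WT and 2016, 2827 and 3210 CPM in the OX-labelled libraries. Every OX-labelled library lay below every WT library, with replicate 1 the lowest and replicate 3 closest to WT. The WT mean was 3609 ± 102 CPM and the OX-labelled mean 2684 ± 610 CPM (SD, n = 3 each). The WT mean was 1.34 times the other, and the log2 fold change was -0.43 (SE 0.20). It was -0.26 without OX replicate 1 and -0.58 without OX replicate 3.

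EF-3 was counted 32016, 28439 and 24107 times in WT replicates 1 to 3. In OX-labelled replicates 1 to 3 it was counted 12497, 26839 and 13410 times. The scaled levels were 6439, 5989 and 6096 CPM in WT and 2451, 6016 and 3371 CPM in the OX-labelled libraries. OX replicate 2 stood inside the WT range, while OX replicates 1 and 3 were well below it, so the groups overlapped. The WT mean was 6175 ± 235 CPM, the OX-labelled mean was 3946 ± 1851 CPM (SD, n = 3 each), and the log2 fold change was -0.65 (SE 0.27). That value rests on which OX-labelled libraries are included, being -1.09 without OX replicate 2 and -0.40 without OX replicate 1.

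EF-Tu COCSUDRAFT_36392 was counted far less deeply, with 216, 131 and 173 counts in WT and 37, 26 and 14 counts in OX-labelled replicates 1 to 3. The 14 counts of OX replicate 3 carry a 95% exact Poisson interval of 7.65 to 23.5 counts, and the 131 counts of WT replicate 2 one of 110 to 155 counts. These intervals cover counting error only. The scaled levels were 43.4, 27.6 and 43.7 CPM in WT and 7.26, 5.83 and 3.52 CPM in the OX-labelled libraries. The lowest WT library thus stood several times above the highest OX-labelled one. The WT mean was 38.3 ± 9.24 CPM and the OX-labelled mean 5.54 ± 1.89 CPM (SD, n = 3 each). The WT mean was 6.91 times the other, and the log2 fold change was -2.76 (SE 0.30), with a range of -3.01 to -2.54 when each library was left out in turn. Among the 8575 genes tested, 3 had a fold change below this one.

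**Figure D1:**
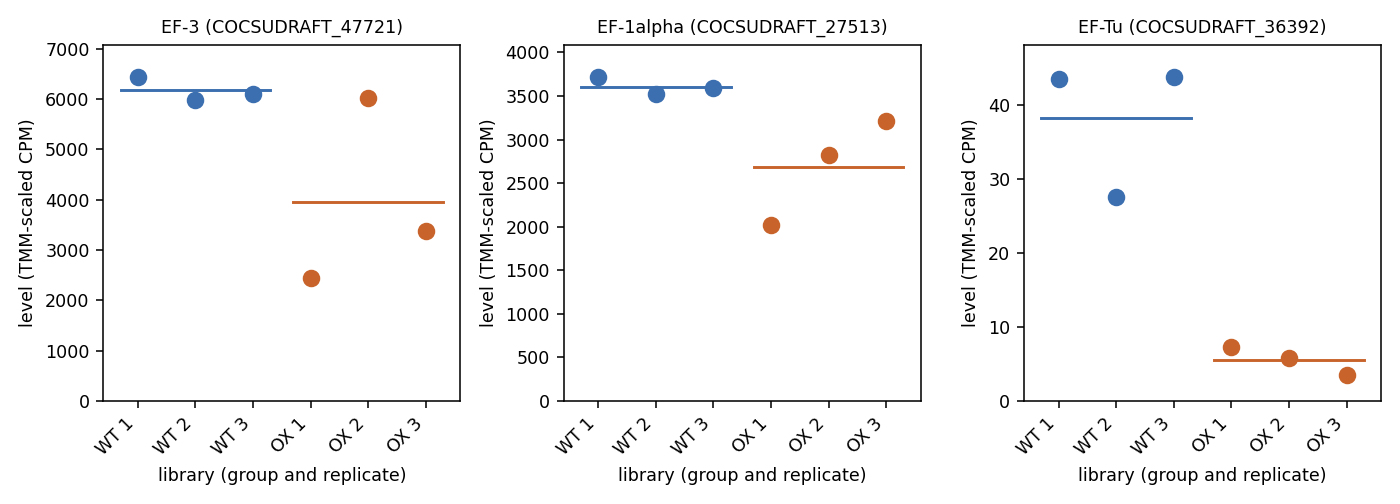
Level of the 3 elongation factor genes in TMM-scaled CPM (vertical axes, from 0, each panel on its own scale) in each library (horizontal axes), WT in blue and OX-labelled in orange, with lines at the group means. EF-Tu is lower in each OX-labelled library than in any WT library, EF-1alpha likewise by less, and for EF-3 the OX-labelled replicate 2 (6016 CPM) lies within the WT range of 5989 to 6439 CPM.

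For EF-1alpha and EF-Tu, but not for EF-3, all OX-labelled libraries lay below all WT libraries. This pattern was found for 19.8% of all genes tested. Since the same contrast served to choose the genes, nothing is read from that count.

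The share of a library taken by the cytosolic pair was large. EF-3 made up 0.646% of the counts of WT replicate 1, with a 95% exact Clopper-Pearson interval of 0.639% to 0.653%. In the OX-labelled replicates its share was 0.234%, 0.568% and 0.347%. EF-1alpha took 0.373% (0.368% to 0.379%) of WT replicate 1 and 0.193%, 0.267% and 0.331% of OX-labelled replicates 1 to 3. The intervals cover counting error, which is small at this depth beside the spread between the OX-labelled libraries. By count, EF-3 was number 3 of the 9490 genes in each WT library and in OX replicate 2, number 23 in OX replicate 1 and number 9 in OX replicate 3. A count grows with transcript length as well as with the number of transcripts, so these places and shares do not rank genes by abundance.

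The 3 genes also differed in how closely replicates matched. In WT, EF-3 had a coefficient of variation of 3.81% and EF-1alpha one of 2.82%. In the OX-labelled libraries the same genes had 46.9% and 22.7%. On the log2 scale the SD of EF-3 was 0.05 in WT, above that of 7.51% of genes tested, and 0.66 in the OX-labelled libraries, above that of 93.4%. For EF-1alpha these were 0.04 (above 4.33%) and 0.35 (above 62.8%). The median SD over all genes was itself larger in the OX-labelled group, 0.28 against 0.18. EF-Tu was the most variable of the 3 in WT, with an SD of 0.38 (above 90.0%) and WT replicate 2 below the other WT libraries. Its SD in the OX-labelled libraries was 0.49 (above 82.6%). Counting error weighs more at low counts, so these percentages compare genes of unlike depth. The difference in spread between the groups was not tested.

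Ratios of counts within a library need no scaling and cancel gene length when libraries are compared. The ratio of EF-3 to EF-1alpha counts was 1.73, 1.70 and 1.70 in WT replicates 1 to 3. In the OX-labelled libraries it was 1.22, 2.13 and 1.05, on both sides of the WT values. The pair was therefore in a nearly fixed proportion in WT and not in the OX-labelled cultures. The ratio of EF-1alpha to EF-2 (COCSUDRAFT_24151) counts was 3.59, 3.58 and 3.35 in WT and 3.20, 3.23 and 3.93 in the OX-labelled libraries. Its groups overlapped. Relative to its mean, it varied less than the ratio of EF-3 to EF-1alpha in the OX-labelled libraries and more in WT. The ratio of EF-3 to EF-2 counts was 6.21, 6.10 and 5.69 in WT and 3.89, 6.87 and 4.12 in the OX-labelled libraries.

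A second gene named Elongation factor Tu, COCSUDRAFT_31499, offers a comparison for the third member. Its level was 140, 143 and 135 CPM in WT replicates 1 to 3 and 128, 101 and 110 CPM in the OX-labelled ones, all below WT. Its log2 fold change was -0.30 (SE 0.17), which did not pass (edgeR adjusted p = 0.227, or 0.129 to 0.403 over the alternatives). The count ratio of COCSUDRAFT_36392 to COCSUDRAFT_31499 was 0.310, 0.194 and 0.325 in WT and 0.0565, 0.0576 and 0.0319 in the OX-labelled libraries. This ratio was lower in each OX-labelled library than in any WT library. Since COCSUDRAFT_36392 was picked with its fall known, the ratio mostly restates that fall and is given as a description. The sources used here do not say how reads that match both genes were counted, and their similarity in sequence was not analysed here.

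**Figure D2:**
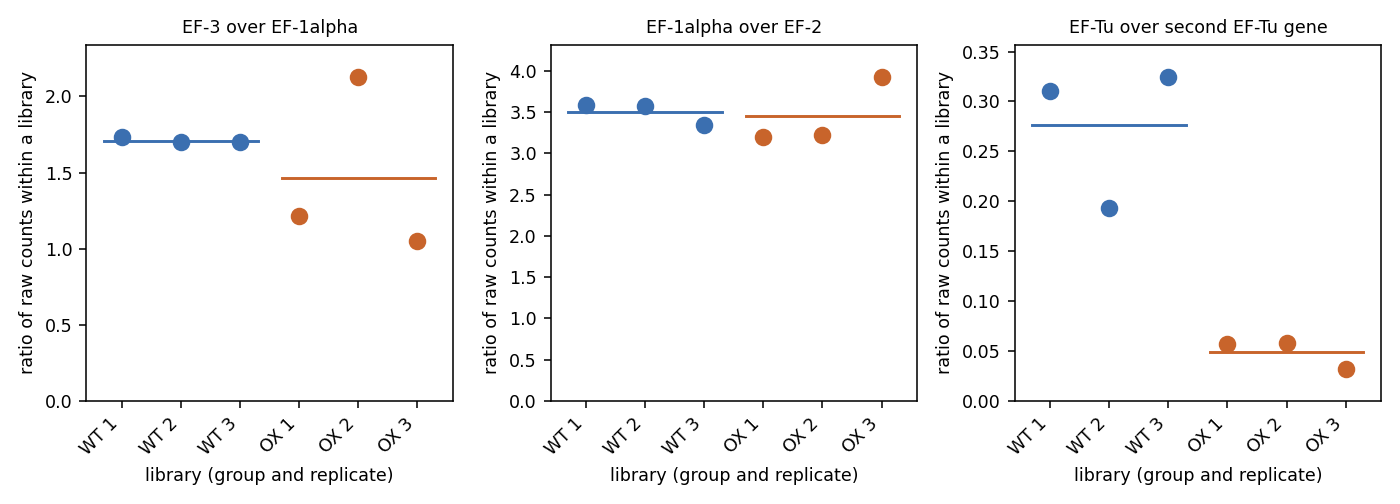
Ratio of raw counts of 2 genes within each library (vertical axes, from 0), for EF-3 over EF-1alpha, EF-1alpha over EF-2 and the EF-Tu gene COCSUDRAFT_36392 over the second EF-Tu gene COCSUDRAFT_31499, with WT in blue, OX-labelled in orange and lines at the group means. EF-3 over EF-1alpha runs from 1.70 to 1.73 in WT and from 1.05 to 2.13 in the OX-labelled libraries, and the EF-Tu ratio is below 0.06 in each OX-labelled library.

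The other elongation factors were taken from a list defined by protein name, which held 12 genes besides the 3, all of them tested. By the quasi-likelihood test of edgeR (adjusted p under 0.05 over all genes), 1 of these 12 rose in the OX-labelled libraries, 0 fell and 11 did not pass. Over all genes tested, 15.6% were called higher and 8.98% lower. At an unadjusted p under 0.05 in edgeR, 2 of the 12 were lower and 2 higher (all genes: 16.3% and 21.6%). The DESeq2 Wald test also called 1 higher and 0 lower (all genes: 16.2% and 10.5%). Without OX replicate 3, 1 was higher and 1 lower (all genes: 18.9% and 14.3%). The median log2 fold change of the 12 was 0.02, beside 0.00 over all genes. The groups did not overlap for 6 of them, 3 with all OX-labelled libraries below WT (19.8% of all genes) and 3 with all above (23.1% of all genes).

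Among the cytosolic factors, EF-2 held 1037, 982 and 1072 CPM in WT and 630, 876 and 817 CPM in OX-labelled replicates 1 to 3. The OX-labelled libraries were all below WT, with a log2 fold change of -0.41 (SE 0.18) that did not pass (edgeR adjusted p = 0.119, or 0.0522 to 0.305 over the alternatives). The factor eIF-5A (COCSUDRAFT_18132), which carries the modified amino acid hypusine and helps stalled ribosomes go on, had 196, 182 and 296 CPM in WT and 133, 155 and 179 CPM in the OX-labelled libraries. Its log2 fold change of -0.53 (SE 0.22) did not pass (edgeR adjusted p = 0.0932), and passed in 1 of 13 alternatives, without OX replicate 3 (-0.64, edgeR adjusted p = 0.0240). EF-Sec (COCSUDRAFT_62618), which delivers selenocysteine, ran the other way, with 61.9, 52.6 and 52.6 CPM in WT and 66.7, 53.1 and 122.7 CPM in the OX-labelled libraries. The groups overlapped, and its log2 fold change of 0.53 (SE 0.27) did not pass (edgeR adjusted p = 0.173). It was 0.10 (edgeR adjusted p = 0.704) without OX replicate 3, which held the high level, and 0.76 (edgeR adjusted p = 0.0497) without OX replicate 2. COCSUDRAFT_54652, named for the guanine nucleotide exchange domain of elongation factor 1, was outside the list and was added after its values were seen. It exchanges the nucleotide on EF-1alpha in other eukaryotes. Its WT mean was 295 ± 47.2 CPM and its OX-labelled mean 227 ± 14.4 CPM (SD, n = 3 each). The log2 fold change was -0.38 (SE 0.18) and did not pass (edgeR adjusted p = 0.141).

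Of 9 factors of organellar or bacterial type by name, 1 was called higher and 0 lower (all genes: 15.6% and 8.98%), with a median log2 fold change of 0.10. The 3 listed factors of cytosolic type had a median of -0.41, with 0 called in either direction. The 1 call was the chloroplastic GUF1 homolog COCSUDRAFT_35985, also known as EF-4, a GTPase that moves ribosomes backward. It rose from 44.0, 46.5 and 42.7 CPM in WT to 71.8, 99.5 and 105 CPM in the OX-labelled libraries. The log2 fold change was 1.05 (SE 0.19, edgeR adjusted p = 0.00276), and the call stood in each of the 13 alternatives. The mitochondrial GUF1 homolog COCSUDRAFT_47382 had a log2 fold change of 0.10 (SE 0.18) and did not pass (edgeR adjusted p = 0.729).

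The EF-Ts, EF-G and EF-P genes were not called. The EF-Ts gene COCSUDRAFT_37065 had 89.7, 79.2 and 97.9 CPM in WT and 119, 101 and 148 CPM in the OX-labelled libraries, all above WT. Its log2 fold change was 0.47 (SE 0.19, edgeR adjusted p = 0.0972), and it passed in 1 of 13 alternatives, without OX replicate 2 (0.59, edgeR adjusted p = 0.0493). Without OX replicate 3 it was 0.31 (edgeR adjusted p = 0.176). The other EF-Ts gene, COCSUDRAFT_13000, had a log2 fold change of -0.14 (SE 0.23). The EF-G gene COCSUDRAFT_44074 had a log2 fold change of -0.20 (SE 0.24), which was -0.49 without OX replicate 3 (edgeR adjusted p = 0.066) and -0.01 without OX replicate 1. The other EF-G gene, COCSUDRAFT_53035, had one of 0.29 (SE 0.24), which was -0.02 without OX replicate 3. EF-P promotes peptide bonds at difficult sites, and its genes had log2 fold changes of -0.06 (COCSUDRAFT_57248, or 0.12 without OX replicate 3) and 0.51 (COCSUDRAFT_35026, or 0.35 without OX replicate 3). The other EF-Ts gene and the EF-G and EF-P genes passed in none of the 13 alternatives.

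Enzymes that modify elongation factors formed a second list. Diphthamide is a modified histidine found on EF-2, and hypusine is the modified lysine of eIF-5A. Among its 5 genes, all tested, 2 fell and 0 rose in edgeR (all genes: 8.98% lower and 15.6% higher). All 5 fold changes were below 0, with a median of -0.38, beside 4306 of the 8575 genes tested. Without OX replicate 3 the same numbers were called, while the shares over all genes were 14.3% lower and 18.9% higher. Both called genes are of the diphthamide pathway. Diphthamide synthase COCSUDRAFT_37397, which completes the modification, fell from 18.5, 16.8 and 24.0 CPM in WT to between 8.55 and 10.3 CPM in the OX-labelled libraries. Its log2 fold change was -1.03 (SE 0.25, edgeR adjusted p = 0.0104), and the call stood in all 13 alternatives. The diphthamide biosynthesis protein COCSUDRAFT_66104 fell by 0.58 on the log2 scale (SE 0.19) with an edgeR adjusted p = 0.0448, from a mean of 54.9 ± 4.61 CPM to one of 36.8 ± 5.13 CPM (SD, n = 3 each). That call was lost without WT replicate 1 (adjusted p = 0.143), 2 (0.101) or 3 (0.0739) and without OX replicate 1 (0.137). It was also lost with the replicate number as a block (edgeR adjusted p = 0.0626).

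The other 3 modifying enzymes did not pass. Diphthine methyl ester synthase COCSUDRAFT_18056, which acts earlier in the same pathway, had a log2 fold change of -0.38 (SE 0.24) and an edgeR adjusted p = 0.266. Deoxyhypusine synthase COCSUDRAFT_11840 and deoxyhypusine hydroxylase COCSUDRAFT_17554, the pair of enzymes that make hypusine, had log2 fold changes of -0.18 (SE 0.27, or 0.01 without OX replicate 1) and -0.21 (SE 0.20). All 5 modifying enzymes had their highest OX-labelled level in replicate 2, as EF-3 did. Over all genes tested 31.9% did, and 2 of the 12 other elongation factors.

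**Figure D3:**
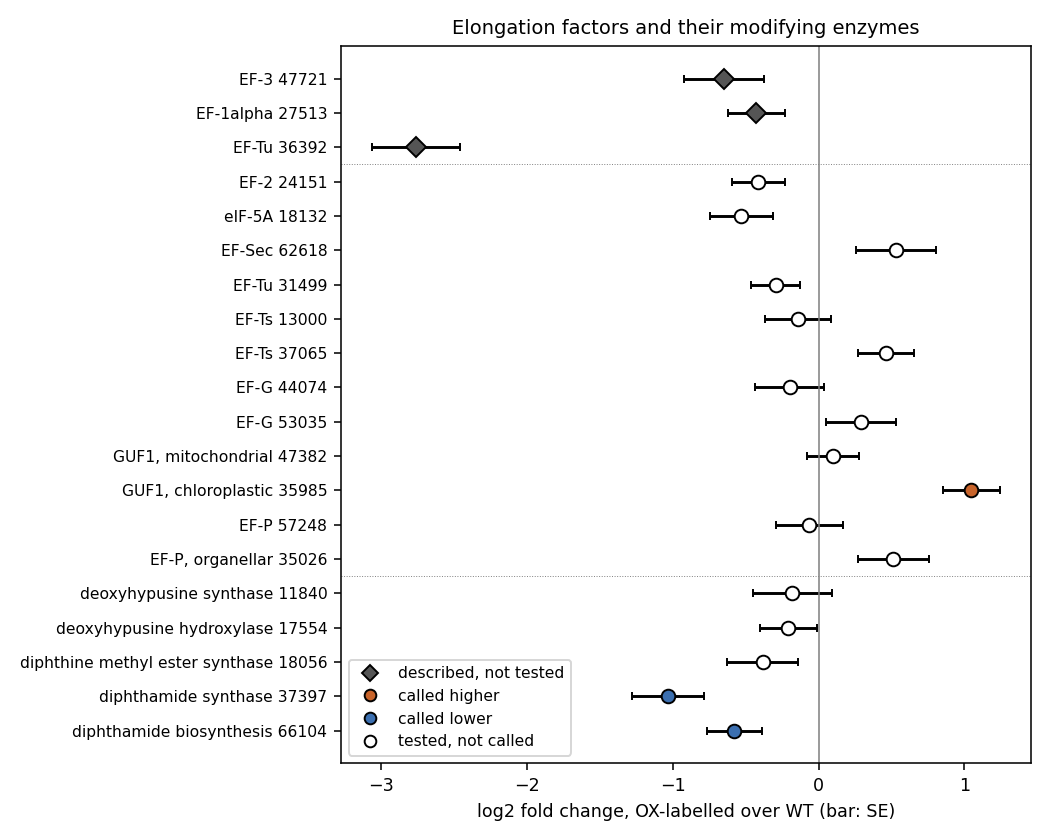
Log2 fold change of the OX-labelled over the WT libraries (horizontal axis, bars give the SE from edgeR) for the 3 elongation factor genes (diamonds, described without a test), the other 12 listed factors and 5 modifying enzymes (circles, filled where called), labelled with the digits of their locus tags. The EF-Tu gene COCSUDRAFT_36392 lies at -2.76 and the other 12 factors run from -0.53 to 1.05. The 5 modifying enzymes all lie below 0, as do 4306 of the 8575 genes tested.

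Other parts of the translation machinery give the setting of these values. Over all genes, 8.98% were called lower and 15.6% higher. Among 113 tested genes with a ribosomal protein name 36 fell and 2 rose, with a median log2 fold change of -0.39. Among 27 initiation factor genes 6 fell and 0 rose (median -0.46), among 37 tRNA ligase genes 7 fell and 1 rose (median -0.22), and among 5 release and recycling genes 1 fell and 0 rose (median -0.23). The falls in these lists together numbered 50, or 19 and 18 when WT replicate 1 or 2 was left out, and 63 when OX replicate 3 was. Over all genes the falls numbered 770, or 313 and 414 without WT replicate 1 or 2, and 1232 without OX replicate 3. The name patterns let in 5 genes that are not ribosomal proteins, an export factor and genes named for a fold, and 1 metabolic enzyme among the initiation factors. None of these was called, so the counts are the same without them. EF-1alpha, at -0.43, stood within the range of these medians, EF-3, at -0.65, somewhat below it and EF-Tu far below it, and these differences were not tested. The initiation factor subunit eIF3k (COCSUDRAFT_83587) fell by 0.92 on the log2 scale, from 93.3 to 49.2 CPM (edgeR adjusted p = 0.00337). The subunit eIF3f (COCSUDRAFT_35682) fell by 0.70, from 177 to 109 CPM (edgeR adjusted p = 0.0147), a call that was lost without WT replicate 1 (0.0703) or 2 (0.0645). Abce1 (COCSUDRAFT_62823), an ATPase that splits ribosomes after termination and like EF-3 holds ATP-binding cassettes, fell by 0.63 on the log2 scale, from 103 to 66.6 CPM (edgeR adjusted p = 0.0297). Its call was lost without WT replicate 2 (0.104) or 3 (0.0807) and without OX replicate 1 (0.101). The cytosolic ribosomal protein L27a (COCSUDRAFT_23296) fell by 1.05 on the log2 scale (edgeR adjusted p = 0.00151). The chloroplastic ribosomal protein S9 (COCSUDRAFT_66434) fell by 1.13 on the log2 scale (edgeR adjusted p = 0.0021), and the glutamyl-tRNA synthetase COCSUDRAFT_12396 rose by 1.67 (edgeR adjusted p = 0.000342).

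**Figure D4:**
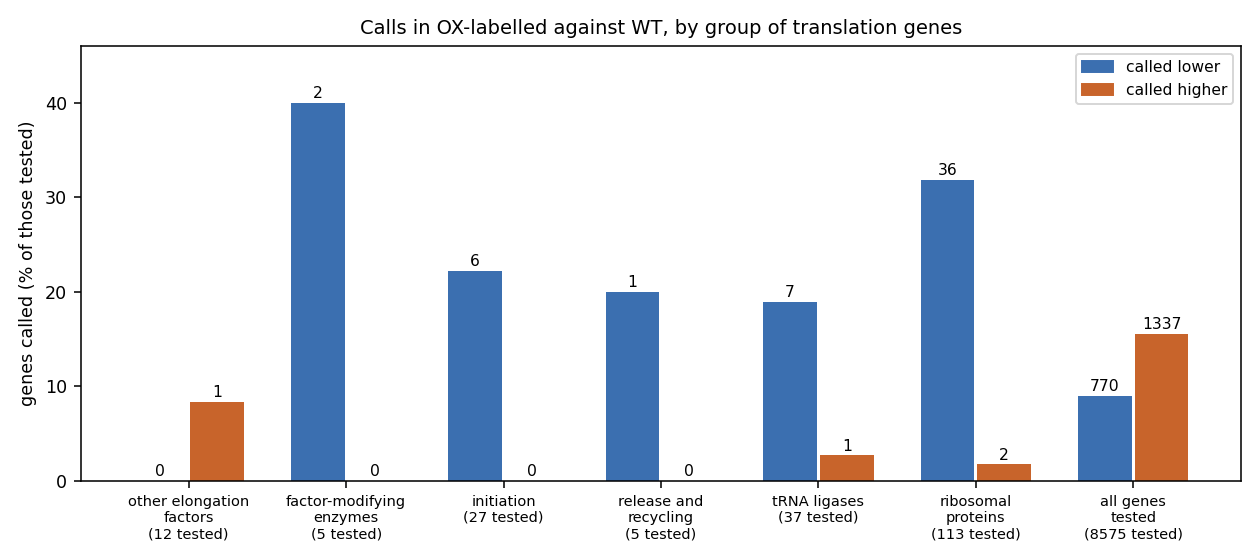
Share of tested genes called lower (blue) or higher (orange) in the OX-labelled libraries (vertical axis, percent, with the number of genes above each bar) for groups of translation genes defined by protein name and for all genes tested. Of the other elongation factors 0 of 12 were called lower and of the genes with a ribosomal protein name 36 of 113, a difference that was not tested. The 12 leave out EF-3, EF-1alpha and EF-Tu COCSUDRAFT_36392. By name, 9 of them are of organellar or bacterial type (median log2 fold change 0.10) and 3 of cytosolic type (median -0.41).

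Genes with a similar pattern over the 6 libraries were found by the root mean square difference of log2 CPM, each gene centred on its own mean, among 5431 tested genes with an informative protein name. With 6 libraries in 2 groups, many genes can come close by the group difference alone. Since the genes were picked by likeness over these same libraries, highs and lows that they share with a member follow from the choice. The nearest genes to EF-3 were amidohydrolase COCSUDRAFT_59480 (difference 0.11), the Kri1_C domain gene COCSUDRAFT_61527 (0.13), a domain of a ribosome assembly factor in yeast, and a heat shock protein 70 gene, COCSUDRAFT_26106 (0.13), a chaperone. The median over all candidates was 0.58. The heat shock protein 70 gene held 4897, 4209 and 4203 CPM in WT and 2044, 3792 and 2664 CPM in the OX-labelled libraries. Like EF-3, it was highest among the OX-labelled libraries in replicate 2 and lowest in replicate 1.

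EF-1alpha had closer matches. They were a P-loop nucleoside triphosphate hydrolase gene (COCSUDRAFT_39642, difference 0.04), the Occludin_ELL domain gene COCSUDRAFT_57350 (0.06) and a DNA-directed RNA polymerase subunit beta (COCSUDRAFT_54821, 0.07), against a median of 0.39. All 3 had their lowest level in OX replicate 1, as EF-1alpha did, which follows from how they were picked. EF-Tu had none as close, against a median of 1.40. Its nearest genes were an MFS general substrate transporter (COCSUDRAFT_37582, 0.43) and a gene with a SET7/9 N-terminal methyltransferase name (COCSUDRAFT_42518, 0.46). Next came a gene named Phosphatases II (COCSUDRAFT_43836, 0.51). Differences of this kind also grow with counting error and with the size of the fold change. EF-Tu had the lowest counts and the largest fold change of the 3 members. Between the members, EF-3 and EF-1alpha differed by 0.34, while EF-Tu differed by 1.12 from EF-3 and by 1.24 from EF-1alpha.

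**Figure D5:**
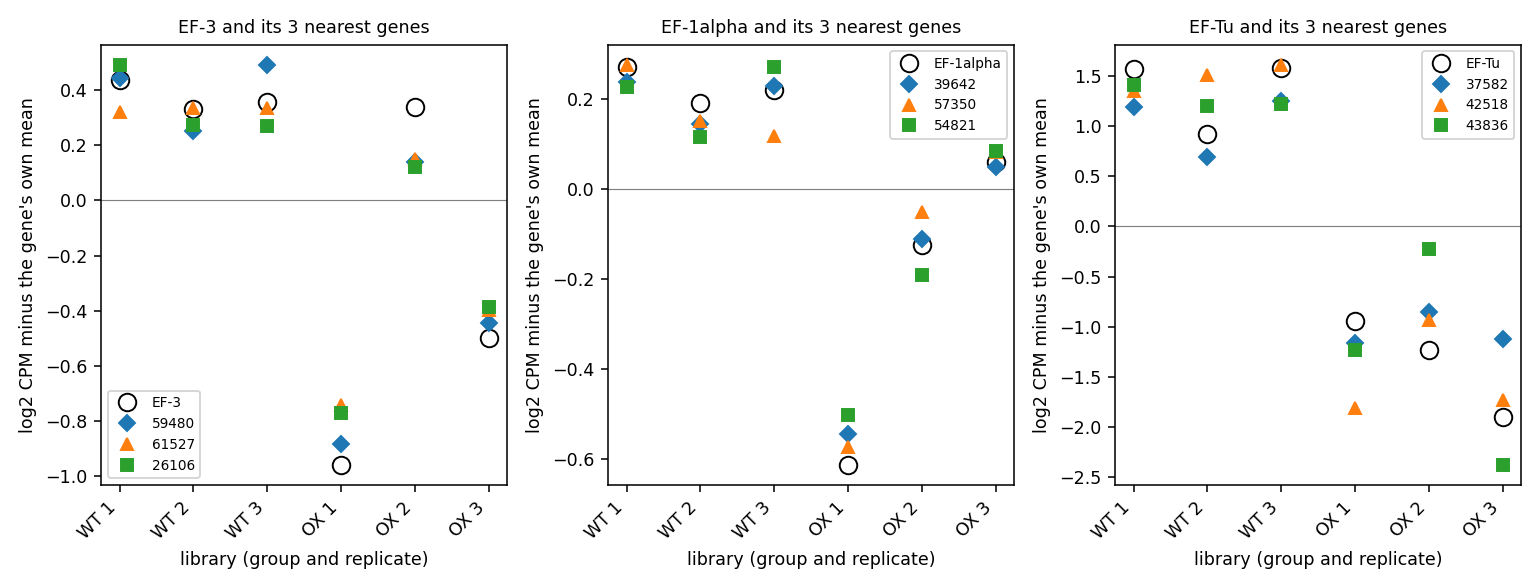
Log2 CPM minus the gene's own mean (vertical axes, own scale in each panel) in the 6 libraries for EF-3, EF-1alpha and EF-Tu (open black circles) and the 3 genes nearest to each (filled symbols, labelled with the digits of their locus tags). Among the OX-labelled libraries, EF-3 and its nearest genes are highest in replicate 2 and lowest in replicate 1. Only EF-3 lies within its own WT range in OX replicate 2, and its nearest genes lie below theirs. The symbols lie closest together for EF-1alpha. The genes were picked by this likeness, so the shared pattern follows from the choice.

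The nearest tested genes on each side were looked at because reads of overlapping genes may be shared. Genes that were not tested may lie between, and distance and overlap were not determined. The gene order is that of assembly GCF_000258705.1, and the sources used here do not say whether the authors used this build. On one side of EF-Tu COCSUDRAFT_36392 the nearest tested gene is the asparagine-tRNA ligase COCSUDRAFT_15475, which loads asparagine onto its tRNA. It fell from 393, 411 and 437 CPM in WT to 170, 170 and 152 CPM in the OX-labelled libraries (log2 fold change -1.33, SE 0.17, edgeR adjusted p = 0.000296). On the other side the nearest tested gene is the uncharacterized gene COCSUDRAFT_41613, which rose by 1.97 on the log2 scale (edgeR adjusted p = 0.000165). Both neighbours thus changed, in opposite directions. Of the 20 tested genes nearest to EF-Tu, 10 on each side, 3 were called lower and 7 higher (all genes: 8.98% and 15.6%), with a median log2 fold change of 0.13.

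Around EF-3, 5 of 20 such genes were lower and 2 higher (all genes: 8.98% and 15.6%), with a median of -0.28. The nearest tested genes on each side of EF-3 were the DNA topoisomerase COCSUDRAFT_16360 and the uncharacterized gene COCSUDRAFT_63988. They had log2 fold changes of -0.48 and -0.23 and did not pass (edgeR adjusted p = 0.173 and 0.596). Around EF-1alpha, 4 of 20 were lower and 1 higher (all genes: 8.98% and 15.6%), with a median of -0.29. The nearest tested gene on one side of EF-1alpha, the uncharacterized gene COCSUDRAFT_27509, fell by 0.64 on the log2 scale (edgeR adjusted p = 0.0433). The one on the other side, COCSUDRAFT_40142, had a log2 fold change of -0.45 that did not pass (edgeR adjusted p = 0.146). Whether the counting used strand, and how far reads of neighbours are shared, was not tested.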

How the data were processed

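Trizol served to extract total RNA and a directional kit to prepare the libraries, per the labels' protocols. FastQC, Trim Galore, HISAT and HTSeq are named, without versions, per the submitters' processing notes. The sources used here do not give the genome build, the strand setting or the treatment of multiply matching reads. The deposited tables hold raw counts per gene, 1 table per library, for genes with at least 1 count over the 6 libraries. Groups and replicate numbers came from the labels.

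Counts were fitted with edgeR 4.0.16 (R 4.3.3) after filterByExpr (8575 genes) and TMM scaling, and groups were compared by its two-sided robust quasi-likelihood F test, with Benjamini-Hochberg adjustment over all genes at 0.05. The SE was obtained by dividing the log2 fold change by the root of F. Log2 CPM for spread and likeness used a prior count of 2. A permutation of 3 against 3 libraries was not used. All 9490 locus tags matched the RefSeq table of assembly GCF_000258705.1, used only for gene order. Library totals ran from 3771499 to 5336375 counts; intervals are 95% exact and cover counting error only. Every pair of libraries differed beyond sampling noise (chi-square of at least 6.97 per degree of freedom).

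The members and lists were chosen with earlier results of these data known. Lists are patterns on protein names; a pattern for ABCF proteins let in 1 gene whose name does not give that subfamily (COCSUDRAFT_22006, not called), and those for ribosomal proteins and initiation factors let in 5 and 1 that do not belong. Named are all genes of the lists for elongation factors and their modification, and up to 2 called genes with the lowest p of each other list. Also named are the 3 genes nearest in pattern to each member, the MADS-box gene and the nearest tested neighbours in gene order. The neighbours were added after the data were seen. Alternatives were other scalings (DESeq2 1.42.0 size factors, library size only, upper quartile), no filter, the DESeq2 Wald test, limma-voom (limma 3.58.1), the replicate number as a block and each library left out. The script was tested on simulated counts in which no library was set apart within its group. Such a test checks the code and not the calls made here.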

Additional observations from a re-analysis of the deposited data

How the results depend on the processing

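The log2 fold changes of the 3 elongation factors kept their sign in all 13 alternatives and moved by less than the SD on the log2 scale pooled over both groups. That SD comes mostly from the OX-labelled libraries, and the shifts of EF-3 and EF-1alpha exceed the SD of the WT libraries alone. Over the fits that leave out 1 library they ran from -1.09 to -0.40 for EF-3, from -0.58 to -0.26 for EF-1alpha and from -3.01 to -2.54 for EF-Tu. Over the other settings they ran from -0.75 to -0.66, from -0.49 to -0.44 and from -2.84 to -2.76.

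Leaving out 1 library moved counts. Among the 12 other elongation factors, 1 to 3 were then called higher and 0 to 1 lower. Among the modifying enzymes, 1 to 2 were lower, and among the other translation lists 18 to 63 were lower and 2 to 6 higher, in place of 50 and 3. Over all genes 737 to 1627 were called higher and 313 to 1232 lower.

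With the replicate number as a block, 1 modifying enzyme was lower in place of 2, the call of COCSUDRAFT_66104 being lost (edgeR adjusted p = 0.0626). The numbers are not shown to pair the samples: same-numbered libraries deviated from their group means with correlations of -0.16, 0.15 and 0.06, and not every library correlated best with its own number. With library size only as scaling, 53.4% of calls were higher in place of 63.5%, and the median of all genes moved by less than 0.1. Taking out genes that a name pattern let in wrongly, an alternative added after the data were seen, left 50 lower and 3 higher in the other translation lists. Depth limits EF-Tu most, with 14 to 37 counts in the OX-labelled libraries.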
